A study of Homo sapiens with 4 samples.

Results

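The genes described here encode the ligands TGFB1, TGFB2 and TGFB3 and the receptors TGFBR1, TGFBR2, TGFBR3, ACVR1, ACVR1B, BMPR1A and BMPR2. These 10 genes were fixed by name, with earlier results of these data known, and peaks were assigned to them by Ensembl gene ID. Of the 10, 7 genes had at least 1 listed peak of N6-methyladenosine (m6A), and together they held 12 of the 20261 peaks on 10140 gene IDs. Of all protein-coding genes, 55.6% on the minus strand and 29.3% on the plus strand had a peak, and 4 of the 10 genes are on the minus strand. MDA-MB-231, the established human triple negative breast cancer line used throughout, was labelled shNS in all 4 libraries, with 2 input libraries of fragmented poly(A) RNA and 2 immunoprecipitated (IP) libraries. Library titles and the protocol describe an anti-m6A antibody, although the treatment field of the IP libraries names YTHDC1. A peak is a stretch of exons with more reads after IP than in the input. All libraries had been combined into 1 list with 1 score per peak, so no value has a replicate error, no test between genes was made, and read depth is unknown.

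TGF-β ligands are secreted as latent dimers. Once released, a dimer binds a type II receptor, which phosphorylates a type I receptor, and the type I receptor passes the signal to SMAD proteins. TGFBR2 and TGFBR1 form this pair for TGF-β, whereas BMPR2 with BMPR1A or ACVR1 serves bone morphogenetic proteins (BMPs), ACVR1B is a type I receptor for activins, and TGFBR3 (betaglycan) is a co-receptor that presents ligand. In breast carcinoma, TGF-β is known for promoting epithelial to mesenchymal transition and metastasis. m6A in mRNA is most often found around the stop codon and in the 3′UTR, and reader proteins bind it.

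Ligands and receptors differed in where m6A was listed. All 3 ligands had a peak near the 5′ end of the gene, and these made up 4 of the 6 ligand peaks. None of the 6 receptor peaks lay there, and all 6 were in the final 10% of the gene span. Position is the midpoint of a peak along the RefSeq span of its gene, introns included, from the 5′ end. The other 2 ligand peaks also lay in the final 10%, and no peak of either class lay between the first and the final 10%. Of the 6 receptor peaks, 3 came from BMPR2 alone. Over all protein-coding genes, the first 10% held 12.1% of minus-strand and 13.2% of plus-strand peaks, so 0 of 6 receptor peaks there is near the background. The final 10% held 37.8% and 36.4%.

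**Figure D1:**
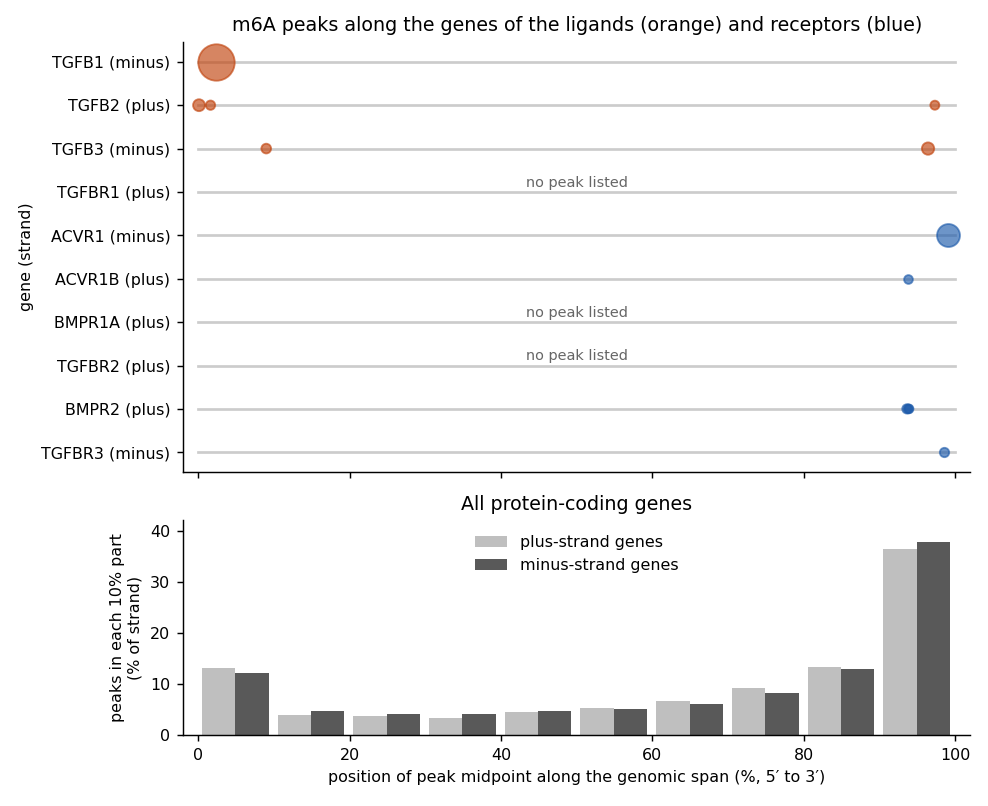
Where each peak midpoint lies on the span of the gene (%, 5′ to 3′) for the 10 genes (top; a larger point stands for a smaller score) and the share of peaks in each 10% part of the span for all protein-coding genes, by strand (bottom). The 6 receptor peaks sit between 93.6 and 99.0%, whereas 4 of the 6 ligand peaks sit at or below 9.00%.

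One peak in TGFB2 began at the first base of the RefSeq span of the gene, and the peak in TGFB1 began 89 bases past the first base. The sequences around both start sites are shown here because these ligand peaks lie beside them. They were copied from the RefSeq promoter table (GRCh38.p14) and are given 5′ to 3′ on the strand of the gene, with the 50 bases before the start site in lower case and the first 30 transcribed bases in capitals. TGFB2 is the plus-strand window at chr1:218345286-218345365, and TGFB1 is the minus-strand window at chr19:41353893-41353972.
TGFB2: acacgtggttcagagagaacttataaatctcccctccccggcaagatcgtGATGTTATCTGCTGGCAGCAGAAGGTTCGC
TGFB1: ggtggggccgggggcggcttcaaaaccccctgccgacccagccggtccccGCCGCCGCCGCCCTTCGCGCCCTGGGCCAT

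Of the capitals, those of TGFB2 lie inside a listed peak and those of TGFB1 do not. The first transcribed base in the table is G for both genes. The letters GGACT, the leading form of the sequence context in which m6A is made, were searched on the transcribed strand of the first 50 transcribed bases, and neither gene held a match. Of all 35116 start windows in the table, 1721 (4.90%) held at least 1 match. A genome sequence was not used here, so nothing beyond these first 50 bases was searched. They hold only part of the first TGFB2 peak and no base of the TGFB1 peak, which begins 89 bases past the first base. The bases under the other peaks were not searched either.

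TGFB1, the ligand most studied in carcinoma, had 1 peak of 955 bases in a single block (chromosome 19, 41352879 to 41353833, minus strand, ENSG00000105329.10). Its score, taken here for the p-value that compares IP with input, was listed as 0, which means too small to be stored. At least 1 peak listed at 0 was found in 386 of the 6624 minus-strand genes with a peak (5.83%). Only 4.50% of minus-strand peaks were as long or longer. Among the 1393 minus-strand peaks in the first 10% of a protein-coding gene, 25 (1.79%) were at least this long and 13 (0.933%) were listed at 0. The midpoint of the peak was at 2.40% of the 23600-base span, and no peak was listed towards the 3′ end of TGFB1. Of minus-strand genes with a single placed peak, 232 of 2034 (11.4%) had it in the first 10%, against 896 (44.1%) in the final 10%.

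TGFB2, a ligand that depends on betaglycan for efficient binding, had 3 peaks on the plus strand of chromosome 1 (ENSG00000092969.12). The first, 218345336 to 218345576, was 241 bases long with a score of 1.6e-20. The second, 218346893 to 218347043, began 1316 bases after the end of the first, was 151 bases long and had a score of 1.6e-06.
The last, 218441894 to 218442044, was also 151 bases long, had the weakest score of the gene (3.5e-05) and ended 2575 bases before the 3′ end. The smallest score of TGFB2 was thus at its 5′ end. A first peak that starts at the first base of the span was found in 97 of 2689 plus-strand genes (3.61%). The RefSeq span of TGFB2-AS1, an antisense RNA gene on the minus strand, covers part of this peak, and TGFB2-AS1 itself had 0 peaks. The list does not state whether reads were counted by strand.

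TGFB3 had 2 peaks on the minus strand of chromosome 14 (ENSG00000119699.7), one towards each end. The peak towards the 5′ end, 75980649 to 75980888, lay 2123 bases from the start of the span at 9.00% of its length, close to the border of the first 10%. It was 240 bases long with a score of 2.2e-08. The peak towards the 3′ end, 75958758 to 75959207, was 450 bases long with a score of 4e-23 and left 661 bases of the span after it.
In TGFB3 the stronger peak was therefore the 3′ one, the reverse of TGFB2. Peaks in both end parts, as in TGFB2 and TGFB3, were found in 9.19% of the 1034 plus-strand and 17.8% of the 3076 minus-strand genes with at least 2 placed peaks. The smaller score was at the 5′ end in 46 of the 95 plus-strand genes with this arrangement (48.4%), the order seen in TGFB2. It was at the 3′ end in 405 of the 546 on the minus strand (74.2%), the order seen in TGFB3.

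Among the type I receptors, ACVR1 carried the strongest receptor peak and ACVR1B a weak one, and neither TGFBR1 nor BMPR1A was in the list. The ACVR1 peak (chromosome 2, 157737131 to 157738442, minus strand, ENSG00000115170.15) had a score of 1e-118 and 538 spliced bases in blocks of 535 and 3 bases. The gene went on for 685 bases past the peak, and 9.97% of minus-strand peaks had a score as small or smaller. The ACVR1B peak (chromosome 12, 51994205 to 51994324, plus strand, ENSG00000135503.13) was 120 bases long, had a score of 0.00068 and ended 2754 bases before the 3′ end. A score as small was held by 78.8% of plus-strand peaks. TGFBR1 (chromosome 9, 99103647 to 99154192) and BMPR1A (chromosome 10, 86755763 to 86932844) are on the plus strand.

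Of the type II receptors, BMPR2 had 3 peaks and TGFBR2 had none. The BMPR2 peaks (chromosome 2, plus strand, ENSG00000204217.15) formed a cluster of 751 bases. The first of them, 202555438 to 202555618, was 181 bases long with a score of 4.5e-06, and the second, 202555768 to 202555948, was 181 bases long with a score of 0.00025.
The last, 202556098 to 202556188, was 91 bases long with a score of 0.0029, the weakest among the 12 peaks. A gap of 149 bases separated each peak from the next, and the score grew larger peak by peak from the 5′ to the 3′ side. All lay in the final 10% of the 191423-base span, but 11561 to 12131 bases before its 3′ end, whereas the median distance of such peaks on the plus strand was 1336 bases. All peaks lay in the final 10% in 21 of the 247 plus-strand genes with 3 placed peaks (8.50%). TGFBR2, the receptor that binds TGF-β first, lies on the plus strand of chromosome 3 (30606356 to 30694142).

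TGFBR3, the co-receptor, had 1 peak of 151 bases (chromosome 1, 91683581 to 91683731, minus strand, ENSG00000069702.11). Its score was 1.4e-06, and 3238 of the 225660 bases of the span lay after it. The median distance from the 3′ end was 1258 bases for minus-strand peaks in the final 10%. At 0.669 peak bases per 1000 bases of span, TGFBR3 was the most sparsely covered of the 7 genes with a peak. TGFB1 was the most densely covered, at 40.5 per 1000 bases. The span includes introns while peaks lie in exons, so these values vary with intron length and do not measure coverage of the mRNA.

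The median length was 240.5 bases over ligand peaks and 166 bases over receptor peaks, and the lengths overlapped. On the plus strand alone the medians were 151 and 150.5 bases, and on the minus strand 450 and 344.5 bases, over 3 ligand and 2 receptor peaks. Ligand peaks ran from 151 to 955 bases and receptor peaks from 91 to 538 bases. The 6 ligand peaks together covered 2188 bases and the 6 receptor peaks 1262 bases. On the minus strand, where the middle 50% of all peaks ran from 151 to 418 bases around a median of 240, TGFB1, the 3′ peak of TGFB3 and ACVR1 were above the upper quartile. On the plus strand the corresponding values were 121, 268 and 181 bases, and no member peak was above the upper quartile.

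**Figure D2:**
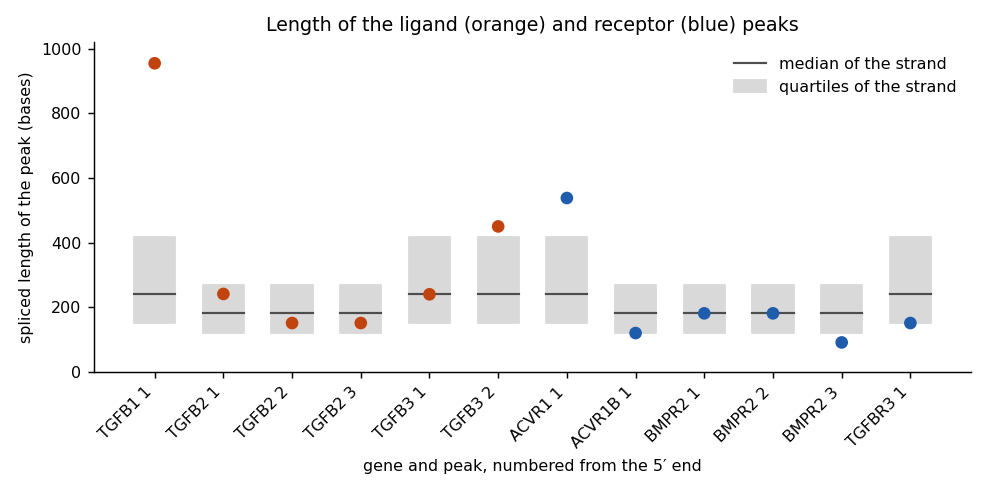
Spliced length in bases of each of the 12 peaks, numbered from the 5′ end of the gene, with the median (line) and quartiles (grey) of all peaks on the strand of that gene. The TGFB1 peak of 955 bases and the ACVR1 peak of 538 bases stand highest, and the last BMPR2 peak is the shortest at 91 bases.

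Scores also separated the classes in part. The median score was 1.1e-08 over ligand peaks and 0.00013 over receptor peaks, beside 5.2e-08 over all 20261 peaks. Within a strand, these medians were 1.6e-06 for ligands and 0.00047 for receptors on the plus strand, and 4e-23 and 7e-07 on the minus strand. A peak at or under this list median was present in 3 of 3 ligands and in 1 of 7 receptors, which was ACVR1. Over all protein-coding genes this share was 43.8% on the minus strand and 12.2% on the plus strand, where 5 of the 7 receptors lie. The receptor count is thus near the background. The score ranges overlapped. ACVR1 was stronger than every peak of TGFB2 and TGFB3. TGFBR3 (1.4e-06) and the first BMPR2 peak (4.5e-06) had smaller scores than the last TGFB2 peak (3.5e-05). TGFBR3 is on the other strand, however, where 63.5% of peaks had a score as small. For the last TGFB2 peak this share was 55.5% on its own strand, so ranked within strands this pair had the reverse order.

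The comparison of ligands with receptors is tied to gene strand, because the list holds 14648 minus-strand and 5613 plus-strand peaks, with median scores of 3.2e-10 and 1.4e-05. Of the ligands, 2 of 3 are on the minus strand, and of the receptors, 2 of 7. The 3 genes without a peak are all on the plus strand. Among minus-strand members 4 of 4 had a peak, where 55.6% of 7758 minus-strand protein-coding genes did. Among plus-strand members 3 of 6 had a peak, where 29.3% of 8085 plus-strand protein-coding genes did. A peak at or under the list median was present in 3 of 4 minus-strand members against 43.8% of all such genes, and in 1 of 6 plus-strand members against 12.2%. With so few genes on each strand, class and strand cannot be told apart for the number of genes with a peak or with one at or under the list median. The list holds no expression values, so a gene without a peak may be unmethylated, weakly expressed or below detection.

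Within a strand, each ligand was ranked beside the receptors of that strand by its smallest score. On the minus strand the order from small to large was TGFB1 (0), ACVR1 (1e-118), TGFB3 (4e-23) and TGFBR3 (1.4e-06). The share of the 6624 minus-strand genes with a score as small was 5.83% for TGFB1, 18.6% for ACVR1, 49.2% for TGFB3 and 76.1% for TGFBR3. Ligands and receptors thus alternated on this strand. On the plus strand the order was TGFB2 (1.6e-20), BMPR2 (4.5e-06) and ACVR1B (0.00068). A score as small was held by 18.9%, 55.3% and 84.5% of the 3516 plus-strand genes, respectively. TGFB2 was thus strong for its strand, although 40.2% of genes of both strands together had a score as small.

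**Figure D3:**
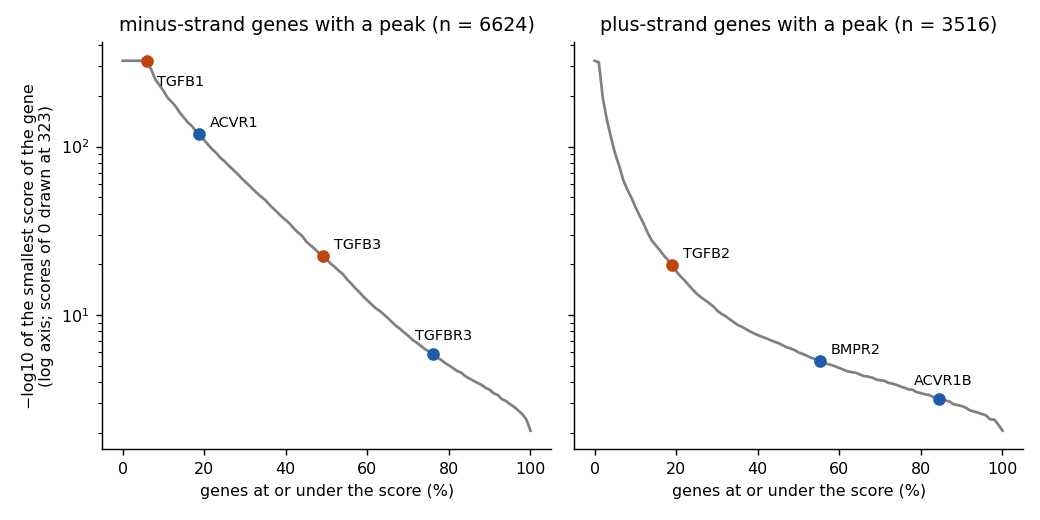
Smallest score of each gene as −log10 (log axis) against the percent of genes on the same strand with a score as small, for minus-strand (left) and plus-strand (right) genes with a peak. Grey lines show all genes of the strand, orange points ligands and blue points receptors; TGFB1 stands at 5.83% and ACVR1B at 84.5%.

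The number of peaks per gene gave another order. TGFB2 and BMPR2 had 3 peaks each, a number reached by 13.9% of plus-strand genes, which had 1.60 ± 1.01 peaks (mean ± SD over 3516 genes). TGFB3 had 2, and 58.1% of minus-strand genes had as many (2.21 ± 1.59 over 6624 genes). TGFB1, with the smallest score, ACVR1, ACVR1B and TGFBR3 had a single peak. The summed spliced length of the TGFB2 peaks was 543 bases, and 17.7% of plus-strand genes had as much. BMPR2 had 453 bases, a length that 23.2% of the genes on its strand had. The 955 bases of TGFB1 were matched or passed by 26.8% on the minus strand, and the 538 bases of ACVR1 by 49.6%.

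For position, both strands gave a similar background. The first 10% of the span held 12.1% of minus-strand and 13.2% of plus-strand peaks in protein-coding genes, and the final 10% held 37.8% and 36.4%. Of the ligand peaks, 2 of 3 on each strand lay in the first 10%. Of the receptor peaks, 2 of 2 on the minus strand and 4 of 4 on the plus strand lay in the final 10%. The counts pointed the same way on both strands, but the 12 peaks come from only 7 genes. Each class had only 1 or 2 genes with a peak on each strand. On the plus strand TGFB2 was the only ligand, and 3 of the 4 receptor peaks were from BMPR2. A trait of the class therefore cannot be told from traits of single genes. The share of exons in each part of a gene was not measured. None of the 12 peaks overlapped a listed peak on the opposite strand, and none was among the last 745 peaks of the file, where the run of chromosomes begins anew (the second part).

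Of 95 other genes in 5 lists of the pathway, 49 had a peak and 34 had one at or under the list median. The shares over all protein-coding genes were 29.3% (plus strand) and 55.6% (minus strand) for any peak, and 12.2% and 43.8% for one at or under the median. Among 30 other ligands of the superfamily, 16 had a peak. The most were listed for BMP8B, with 7 peaks and a smallest score of 2.6e-08, for GDF5, with 4 peaks and 2.8e-08, and for BMP7, with 3 peaks and 1e-114. BMP8B is closely similar to its neighbour BMP8A, so reads may have been shared between them, and 1 of the GDF5 peaks overlapped an opposite-strand peak. The first 10% of the span held 6 of the 36 placed peaks of these other ligands (16.7%), and the final 10% held 13 (36.1%).

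Among 13 other receptors and co-receptors, 5 had a peak, and none of their 7 placed peaks lay in the first 10%, whereas 2 (28.6%) lay in the final 10%. Over all protein-coding genes, the first 10% held 12.1% of minus-strand and 13.2% of plus-strand peaks, and the final 10% held 37.8% and 36.4%. With 7 peaks, both counts are near the background. RGMA, a BMP co-receptor, had 3 peaks with a summed length of 1772 bases and a smallest score of 1.6e-80. RGMB, of the same family, had 2 peaks (1.1e-07), of which 1 overlapped a peak on the opposite strand. ENG (endoglin), which resembles betaglycan, had 1 peak of 657 bases with a score of 5e-22. None of the placed peaks of these named genes lay in either end part.

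Of 14 genes for the latency and activation of TGF-β, 8 had a peak. LTBP3, which tethers latent TGF-β to the extracellular matrix, had 7 peaks (smallest score 7.9e-30). LTBP2, of the same family, had 3 peaks (1.3e-41). LRRC32, which holds latent TGF-β at the cell surface, had 3 peaks (1.4e-05). Extracellular antagonists and decoys were the list with the lowest share, 5 of 17 genes (29.4%). Its named genes were SOSTDC1 (3 peaks, 2.1e-08), FSTL1 (3 peaks, 7.4e-05) and NOG (2 peaks, 1.6e-08), of which SOSTDC1 and NOG encode BMP antagonists.

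Adaptors and turnover factors of the receptors were the list with the highest share, 15 of 21 genes (71.4%), 13 of them with a peak at or under the list median. DAB2, an endocytic adaptor, had 3 peaks (2e-49), and SMURF1, a ubiquitin ligase for SMADs and receptors, had 3 peaks (7.9e-29), all in the final 10% of its span. HGS, an endosomal sorting protein, had 3 peaks (2.5e-17), each of which overlapped a peak on the opposite strand. On the plus strand 6 of 10 genes of this list had a peak, 4 of them at or under the median, and on the minus strand 8 of 9, all 8 at or under it. The corresponding counts were 5 of 12 and 6 of 11 for other ligands, and 3 of 8 and 2 of 4 for other receptors. For the latency list they were 2 of 7 and 4 of 5, and for antagonists 1 of 8 and 1 of 4. These counts leave out genes whose strand is not in the promoter table, NOG among them. Of those, 5 of 7 other ligands, 0 of 1 other receptors, 2 of 2 latency genes, 3 of 5 antagonists and 1 of 2 adaptors and turnover factors had a peak. The background shares were likewise taken over genes with a strand in that table.

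**Figure D4:**
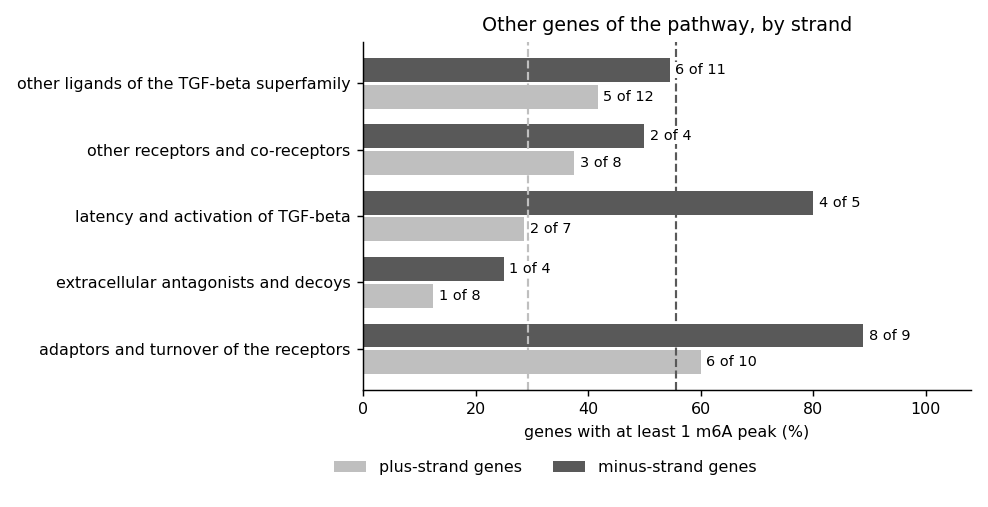
Percent of genes with at least 1 peak in each of the 5 lists, by strand, with the number of genes beside each bar; dashed lines mark all protein-coding genes of the strand (29.3% plus, 55.6% minus). Genes whose strand is not in the promoter table are left out, and adaptors and turnover factors have the longest bars on both strands.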

How the data were processed

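Poly(A) RNA of MDA-MB-231 cells was profiled by m6A-seq (2 input and 2 IP libraries, grouped by title). The authors mapped reads with STAR to GENCODE v33 transcripts and called peaks with exomePeak at default settings, filtered by fold enrichment and FDR. The submitters' processing notes name hg38. The deposited score was taken for the p-value that exomePeak writes for each peak. It could be an FDR, since the header is silent on this, and every score given here would then be one. Block sizes and coordinates, deposited in another column each, are written from 1. Values depend on unknown read depth, so long or highly expressed transcripts can give smaller scores.

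Symbols were matched for 10103 of 10140 gene IDs. Spans are those of RefSeq (GRCh38.p14), and strands of 15843 of 20043 protein-coding genes came from its promoter table. Of genes with a strand there, 42.2% had a peak, and of those without, 35.6%. Positions cover 15944 peaks inside the span of their gene (7799 genes). Overlap meant at least 1 shared base. Scores of 0 were ranked together, ahead of all other scores, and were drawn at a −log10 of 323. The named genes were all 10 members and, in each of the 5 lists, the 3 genes with the most peaks, with ties going to the smaller score. Members and lists were chosen with earlier results of these data known. No test was made. Python 3.11.15 and pandas 2.3.3 were used, and functions were tested on simulated data. Alternatives covered score, merging, opposite-strand overlap, the second part of the list, the reference genes and the width of the end part.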

Additional observations from a re-analysis of the deposited data

How the results depend on the processing

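The number of genes with a peak (7), of peaks (12), of ligands (3) and receptors (4) with a peak and of peaks in the final 10% of the span (8) had the same value when overlapping peaks were merged, when peaks with an opposite-strand overlap were left out (by 1 shared base or by 50% of the shorter peak) and without the second part of the file. A final part of 20% also held 8 peaks. With only peaks at or under the list median, 4 genes, 5 peaks, 1 receptor and 2 peaks in the final 10% were left, and the number of ligands was 3. By the median of each strand, an alternative chosen after seeing the data, as was the 20% part, 6 peaks and 2 receptors were left, with 5 genes and 3 ligands. Fewer peaks enter both counts by construction.

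The percent of same-strand genes ranked at or above a gene depended on the measure of strength. By the summed length of the peaks in place of the smallest score, it was 26.8% for TGFB1 (5.83% by score), 49.6% for ACVR1 (18.6%), 23.2% for BMPR2 (55.3%), 39.2% for TGFB3 (49.2%), 17.7% for TGFB2, 88.3% for ACVR1B and 87.5% for TGFBR3. By score, with both strands ranked together, it was 40.2% for TGFB2 and 70.4% for BMPR2. Over all choices of reference genes and peaks, by score, the range was 4.15 to 6.97% for TGFB1, 14.0 to 40.2% for TGFB2 and 38.1 to 57.0% for TGFB3. Among receptors it was 13.5 to 22.3% for ACVR1, 82.2 to 90.1% for ACVR1B, 49.4 to 70.4% for BMPR2 and 67.5 to 82.7% for TGFBR3. The cause was not tested. The planned count of GGACT in the peaks was not run, since it needs a genome sequence. No paired analysis was possible because each score stands for all 4 libraries together, which also prevents leaving out a replicate.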
